A study of Homo sapiens with 6 samples.

Results

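The 10 mucin genes described here are 10 of the 60649 gene rows in the count table, in human OVCAR5 cells, which the paper uses as an ovarian cancer cell line. The lineage of these cells was not tested here. They were found by matching the symbols MUC16, MUC1, MUC2, MUC3A, MUC4, MUC5AC, MUC5B, MUC13, MUC15 and MUC20 to the Ensembl identifiers of the rows. MUC16 was selected on its levels in these same libraries, where it was high in replicate 1 with METTL3, so its levels are a description and carry no test. The other 9 were taken by symbol. To examine gene expression with raised METTL3, the catalytic subunit of the m6A RNA methyltransferase, mRNA was sequenced from 3 libraries of puromycin-selected cells that carried a lentiviral METTL3 construct and 3 of cells that carried the empty lentivirus. No drug treatment is given for either group. Each group is a stable transduced population with no statement of separate clones, and the labels do not say whether replicates came from separate cultures, so p-values measure the spread between these libraries, which may be technical.

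Mucins are long glycoproteins whose serine- and threonine-rich repeats carry O-linked sugars. The transmembrane mucins MUC1, MUC3A, MUC4, MUC13, MUC15 and MUC16 line the apical surface of epithelial cells, where they form a barrier and can signal through their cytoplasmic tails, and MUC20 is a shorter cell surface mucin linked to the MET receptor. MUC2, MUC5AC and MUC5B are secreted and polymerize into the gel of mucus. The shed part of MUC16 is CA125, the serum marker used to follow ovarian cancer, and it binds mesothelin on mesothelial cells.

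Coding repeats bear on how reads of these genes can be placed, and the coding part of the longest GENCODE transcript was searched for units of up to 150 bases in at least 10 exact copies. MUC2 was not examined, since its longest transcript has no annotated coding part, and 3 of the other 9 members had such a unit. The units are given 5′ to 3′ on the coding strand, in GRCh38, in lower case with no part marked. The MUC4 unit lies at chr3:195788034-195788081 on the minus strand and was found in 14 exact copies of 48 bases, the MUC5AC unit at chr11:1185244-1185267 on the plus strand in 15 exact copies of 24 bases, and the MUC20 unit at chr3:195725150-195725206 on the plus strand in 10 exact copies of 57 bases.
MUC4 repeat unit: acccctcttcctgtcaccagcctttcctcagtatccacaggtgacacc
MUC5AC repeat unit: gctcctacaaccagcacaacctct
MUC20 repeat unit: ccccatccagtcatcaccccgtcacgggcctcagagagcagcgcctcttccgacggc
Of all 50-base words in the longest transcript, 29.2% occurred more than once in MUC5B, 28.9% in MUC4, 21.4% in each of MUC5AC and MUC2 and 11.0% in MUC20, but 1.07% in MUC16 and 0% in MUC1 and MUC13. This does not make MUC16 and MUC1 free of repeats. The most repeated 20-base word of MUC16 had 10 copies, most often 468 bases apart, which is beyond the limit of 150 bases. In MUC1 it had 2 copies, 60 bases apart. Only the reference transcript was searched, and copy numbers in these cells were not measured. In MUC20, 26.7% of these words also occurred in another gene, among them the pseudogene MUC20P1, and 27.1% of its exonic bases overlapped MUC20-OT1 on the same strand. Its counts are therefore uncertain.

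Promoters are shown for MUC16, for MUC13 and MUC2, which like MUC16 were higher in replicate 1 than in the mean of replicates 2 and 3 in both groups, and for MUC1, which was lower in replicate 1 with the vector. MUC4 was also higher in replicate 1 of both groups, but its window is not shown. The MUC16, MUC13 and MUC2 windows shown are the ones with an AP-1 match, so the choice of windows supports no link between that motif and replicate 1. The RefSeq table for GRCh38.p14 held 8 windows for 6 of the 10 genes, each from 250 bases before to 50 after a transcription start, and MUC5AC, MUC5B, MUC15 and MUC20 had no entry. Capitals mark matches to TGANTCA, the AP-1 motif, and to GGGCGG, the GC box, on either strand. The windows are chr19:9010360-9010659 (minus strand) for the MUC16 start nearest to its GENCODE gene start, chr3:124934702-124935001 (minus strand) for MUC13, chr11:1074624-1074923 (plus strand) for MUC2 and chr1:155192866-155193165 (minus strand) for MUC1.
MUC16 promoter: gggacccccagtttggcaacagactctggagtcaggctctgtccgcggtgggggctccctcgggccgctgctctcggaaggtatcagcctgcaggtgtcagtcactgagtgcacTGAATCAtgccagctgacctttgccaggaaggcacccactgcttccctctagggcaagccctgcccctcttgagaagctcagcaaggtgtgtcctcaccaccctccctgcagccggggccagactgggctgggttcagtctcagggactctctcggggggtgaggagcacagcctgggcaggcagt
MUC13 promoter: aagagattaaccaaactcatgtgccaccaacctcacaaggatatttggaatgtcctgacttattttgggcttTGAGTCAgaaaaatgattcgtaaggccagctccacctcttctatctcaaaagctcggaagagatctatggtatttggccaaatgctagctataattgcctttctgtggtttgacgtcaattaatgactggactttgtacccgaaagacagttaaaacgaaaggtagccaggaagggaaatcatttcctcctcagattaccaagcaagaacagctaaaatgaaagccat
MUC2 promoter: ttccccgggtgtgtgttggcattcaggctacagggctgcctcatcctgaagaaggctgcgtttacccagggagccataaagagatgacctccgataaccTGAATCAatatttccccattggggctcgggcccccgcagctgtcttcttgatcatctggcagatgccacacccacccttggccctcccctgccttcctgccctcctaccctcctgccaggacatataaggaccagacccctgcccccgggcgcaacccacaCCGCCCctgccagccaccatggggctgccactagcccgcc
MUC1 promoter: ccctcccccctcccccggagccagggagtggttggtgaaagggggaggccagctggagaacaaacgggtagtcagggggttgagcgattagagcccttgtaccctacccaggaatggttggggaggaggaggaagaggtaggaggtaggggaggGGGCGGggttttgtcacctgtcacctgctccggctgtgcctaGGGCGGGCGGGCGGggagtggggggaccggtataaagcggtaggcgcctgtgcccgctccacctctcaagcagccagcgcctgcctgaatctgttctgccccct
An AP-1 match was present in 3 of the 8 windows, at position -136 from the start in MUC16, -178 in MUC13 and -151 in MUC2, and 7.71% of all 35116 windows in the table held one. GC box matches were present in 6 of the 8 windows, in 5 of the 6 genes, with 4 in the MUC1 window shown, 3 of which overlapped one another, and 45.0% of all windows held one. The second MUC16 window, at chr19:9065702-9066001, held a GC box match and no AP-1 match, and so did the MUC4 window, although MUC4 was also higher in replicate 1 of both groups. The forkhead motif TGTTTAC and the ETS motif CCGGAA, found in 3.42% and 17.2% of all windows, matched none of the 8. These are matches of letters, and binding was not measured.

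Total counts ranged from 96633925 to 125463386 per library, and 22038 genes passed the filter on low counts, including 9 of the 10 mucins. METTL3 itself was at 152, 165 and 175 CPM (reads of a gene for every 1e6 counted, scaled by the TMM factors) in METTL3 replicates 1, 2 and 3, and at 80.6, 68.6 and 71.6 CPM in the vector libraries. Its log2 fold change was 1.16 ± 0.12 (SE, adjusted p = 0.072), and every METTL3 library lay above every vector library. The epithelial markers KRT8 and KRT18, keratins of simple epithelia, were at 3131 to 5153 and 1475 to 2094 CPM. Of 8 ovarian carcinoma markers, WT1 and SOX17 stayed under the filter, while WFDC2, which encodes the serum marker HE4, was at 112 to 244 CPM. PAX8, another of the 8, was at 6.38 to 11.6 CPM. CDX2 and HNF4A, from the genes of mucus-secreting cells listed below, were at 8.26 to 11.1 and 7.46 to 13.3 CPM. What these levels say of the lineage of the cells was not tested. The replicate 1 libraries stood apart from the others in both groups: the 7SL RNA genes RN7SL1, RN7SL2 and RN7SL3 summed to 97.3 CPM with METTL3 against 153 CPM with the vector in replicate 1, against 23.2 to 35.6 CPM in the other libraries. Results that rest on these libraries are given with and without them, and the part of this difference in the mucin values was not tested.

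In MUC16 (ENSG00000181143, chr19:8848844-9010390, minus strand), the counts were 5578, 765 and 348 in METTL3 replicates 1, 2 and 3 and 683, 327 and 219 in vector replicates 1, 2 and 3. These correspond to 49.4, 6.17 and 3.45 CPM with METTL3 against 7.20, 2.89 and 1.98 CPM with the vector. A single library, METTL3 replicate 1, was 10.3 times the mean of METTL3 replicates 2 and 3 and 6.87 times the next highest library, which was vector replicate 1. Vector replicate 1 was in turn 2.95 times the mean of vector replicates 2 and 3, so that replicate 1 was the highest library of each group. In bulk RNA, fewer cells with a transcript and less transcript per cell cannot be told apart. The groups overlapped, since METTL3 replicates 2 and 3 lay below vector replicate 1. Within a replicate number, MUC16 was 6.87, 2.13 and 1.74 times as high with METTL3 as with the vector for numbers 1, 2 and 3. Pairing of libraries by number was not established, so such ratios are a description for every gene. The fitted log2 fold change was 2.29 ± 0.95 over 6 libraries and 0.99 ± 0.32 in replicates 2 and 3. It was 0.29 without METTL3 replicate 1, and 1.58 ± 0.39 over 6 libraries with the replicate number as a block.

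Among the other transmembrane mucins, MUC4 (chr3:195746765-195811973, minus strand), which can bind the receptor ERBB2, was at 419, 170.3 and 130.4 CPM with METTL3 against 68.4, 60.0 and 57.1 CPM with the vector. Every METTL3 library lay above every vector library, with METTL3 replicate 1 again the highest and the vector libraries close together. The mean level was 239.7 ± 156.1 CPM (SD, n = 3) in METTL3 libraries, compared to 61.8 ± 5.86 CPM (SD, n = 3) in vector libraries. The log2 fold change of MUC4 was 1.96 ± 0.39 and did not pass over 6 libraries (adjusted p = 0.341). In replicates 2 and 3 alone MUC4 rose by 1.36 ± 0.12 (adjusted p = 0.00075).

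MUC1 (chr1:155185824-155192916, minus strand), which carries the CA15-3 serum antigen, was at 148, 105 and 90.5 CPM with METTL3 against 27.0, 78.7 and 71.9 CPM with the vector. The groups did not overlap, but the vector libraries split, with vector replicate 1 at 0.358 times the mean of the other two. The METTL3 to vector ratio was 5.49 within replicate number 1, against 1.33 and 1.26 within numbers 2 and 3. Over 6 libraries the log2 fold change of MUC1 was 0.95 ± 0.37 (adjusted p = 0.565), and in replicates 2 and 3 it rose by 0.37 ± 0.07 (adjusted p = 0.0028).

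MUC20 (chr3:195720884-195741123, plus strand) was at 25.2, 19.3 and 16.1 CPM with METTL3 against 8.86, 12.3 and 11.7 CPM with the vector. The groups did not overlap, and vector replicate 1 was the lowest library. The log2 fold change of MUC20 was 0.88 ± 0.20 over 6 libraries (adjusted p = 0.395), and it rose by 0.56 ± 0.09 in replicates 2 and 3 (adjusted p = 0.00075). MUC20P1, which shares sequence with it, was at 7.85, 4.85 and 4.06 CPM with METTL3 against 2.46, 3.49 and 3.10 CPM with the vector. The overlapping MUC20-OT1 was at 17.6 to 21.1 CPM with METTL3 against 16.7 to 17.8 CPM with the vector.

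MUC13 (chr3:124905442-124953819, minus strand), a mucin typical of the gastrointestinal epithelium, was at 61.4, 22.2 and 19.1 CPM with METTL3 against 38.4, 23.03 and 21.9 CPM with the vector. Replicate 1 was the highest library of both groups, and the groups overlapped. Its log2 fold change was 0.30 ± 0.43 over 6 libraries (adjusted p = 0.848) and -0.12 ± 0.08 in replicates 2 and 3 (adjusted p = 0.356). The METTL3 to vector ratio of MUC13 was 1.597, 0.962 and 0.871 within replicate numbers 1, 2 and 3.

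MUC3A (chr7:100949534-100968347, plus strand), an intestinal transmembrane mucin, was at 4.43, 2.59 and 2.52 CPM with METTL3 against 1.80, 2.41 and 2.47 CPM with the vector. Replicates 2 and 3 of both groups lay within 2.41 to 2.59 CPM, and the separation of the groups by rank was narrow. The log2 fold change of MUC3A was 0.51 ± 0.27 over 6 libraries (adjusted p = 0.635) and 0.07 ± 0.15 in replicates 2 and 3 (adjusted p = 0.837). MUC15 (chr11:26559032-26572263, minus strand), a small membrane mucin, had counts of 10, 10 and 2 with METTL3 and 4, 4 and 0 with the vector and did not pass the filter. These correspond to 0.0886, 0.0807 and 0.0198 CPM with METTL3 against 0.0422, 0.0354 and 0 CPM with the vector, and the count of 0 in vector replicate 3 allows up to 0.0271 CPM, counting error only.

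The 3 gel-forming mucins lie in a row on chromosome 11 and differed in how they varied. MUC5AC (chr11:1157953-1201138, plus strand), the main mucin of gastric surface cells and airway goblet cells, was at 499, 249.8 and 174 CPM with METTL3 against 73.9, 102 and 88.4 CPM with the vector. All METTL3 libraries lay above all vector libraries, and the METTL3 libraries spread over a wider range than the vector libraries. The log2 fold change of MUC5AC was 1.80 ± 0.35 over 6 libraries (adjusted p = 0.341) and 1.15 ± 0.25 in replicates 2 and 3 (adjusted p = 0.112).

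MUC5B (chr11:1223066-1262172, plus strand), the second gel-forming mucin of the airway, was at 134, 21.4 and 12.9 CPM with METTL3 against 7.89, 17.8 and 16.3 CPM with the vector. It had the largest METTL3 to vector ratio of the 9 tested mucins within replicate number 1, at 17.0, whereas the ratio was 1.21 and 0.791 within numbers 2 and 3. METTL3 replicate 1 was the highest and vector replicate 1 the lowest of the 6 libraries. The log2 fold change of MUC5B was 2.01 ± 0.80 over 6 libraries (adjusted p = 0.569) and 0.01 ± 0.30 in replicates 2 and 3 (adjusted p = 0.987).

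MUC2 (chr11:1074875-1110511, plus strand), the main gel-forming mucin of intestinal goblet cells, was at 4.26, 3.38 and 2.75 CPM with METTL3 against 1.71, 1.39 and 1.57 CPM with the vector. The groups did not overlap, and no library stood far from its group, with METTL3 to vector ratios of 2.50, 2.43 and 1.74 within replicate numbers 1, 2 and 3. The log2 fold change of MUC2 was 1.15 ± 0.22 over 6 libraries (adjusted p = 0.340), and it rose by 1.05 ± 0.17 in replicates 2 and 3 (adjusted p = 0.00069).

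**Figure D1:**
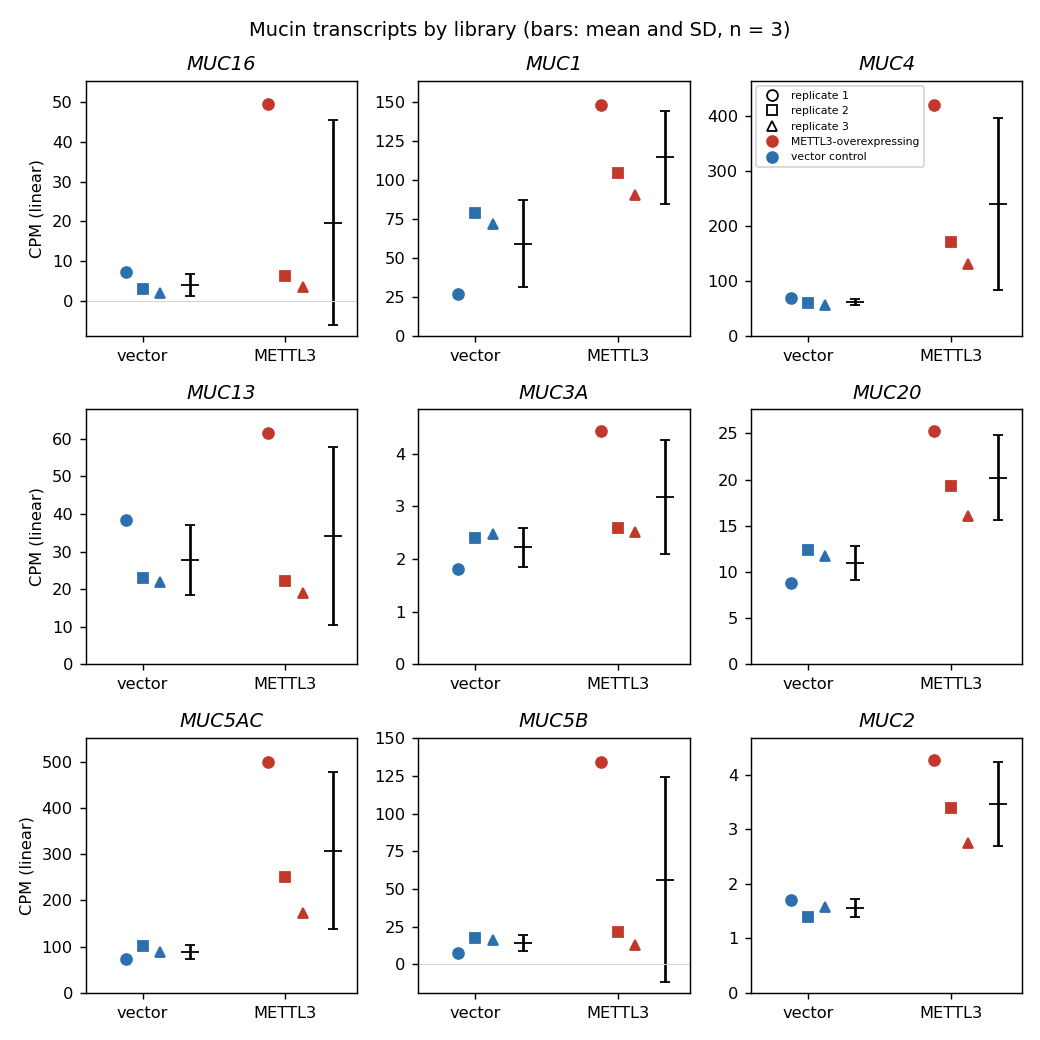
CPM of the 9 mucins that passed the filter, on a linear axis for each gene, with circles, squares and triangles for replicates 1, 2 and 3 of the vector control (blue) and METTL3-overexpressing (red) libraries, and bars for the mean and SD of 3 libraries. The red circle, METTL3 replicate 1, is the highest point in all 9 panels, while the blue circle, vector replicate 1, is above the other vector libraries for MUC16, MUC4, MUC13 and MUC2 and below them for MUC1, MUC3A, MUC20, MUC5AC and MUC5B.

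Over 6 libraries, 0 of the 9 tested mucins passed an adjusted p of 0.05, and 0 of the 22038 genes did (0%). At an unadjusted p under 0.05, 969 genes (4.40%) were higher with METTL3. Of the 9 mucins 7 were among them, namely MUC1, MUC2, MUC4, MUC5AC, MUC5B, MUC20 and MUC16, the last of which was chosen on these levels. All 3 METTL3 libraries were above all 3 vector libraries for 6 of the 9, namely MUC1, MUC2, MUC3A, MUC4, MUC5AC and MUC20, and for 8.47% of all genes tested. The same 6 genes with MUC16 were higher with METTL3 within each of the 3 replicate numbers, as were 19.6% of all genes. The median log2 fold change was 1.15 over the 9 mucins, all of which had a positive value, and -0.018 over all genes, 47.3% of which had a positive value. These counts describe only the mucins that passed the filter, and the members were chosen with earlier results known. The median and the count of positive values take in MUC16, which was chosen on these levels.

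Without the replicate 1 libraries, 4 of the 9 mucins rose at an adjusted p under 0.05, namely MUC1, MUC2, MUC4 and MUC20, against 6.66% of 22046 genes higher and 8.59% lower, and no mucin fell. MUC5AC and MUC16 had log2 fold changes near 1 without passing, and MUC3A, MUC5B and MUC13 were between -0.12 and 0.07. Both METTL3 libraries lay above both vector libraries for 7 of the 9 in replicates 2 and 3, where 26.5% of all genes did so. These 7 include MUC16, which was chosen on its levels in these libraries. Without METTL3 replicate 1 alone, 4 mucins were higher at an unadjusted p under 0.05, namely MUC2, MUC4, MUC5AC and MUC20, as were 3.11% of all genes. The median log2 fold change of the 9 mucins, MUC16 among them, was 0.56 in replicates 2 and 3. Over all 6 libraries, DESeq2 called 4 of them higher, namely MUC2, MUC4, MUC5AC and MUC20, against 0.846% of 18566 genes. EdgeR without a filter called 7, against 0.782% of 43096 genes. They were MUC1, MUC2, MUC4, MUC5AC, MUC5B, MUC20 and MUC16, the last of which was chosen on these levels and carries no test. The log2 fold change of MUC5B was 2.01 with and without the filter, and 0.01 in replicates 2 and 3. Its adjusted p in edgeR went from 0.569 with the filter to 4.2e-30 without it, and why was not tested.

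**Figure D2:**
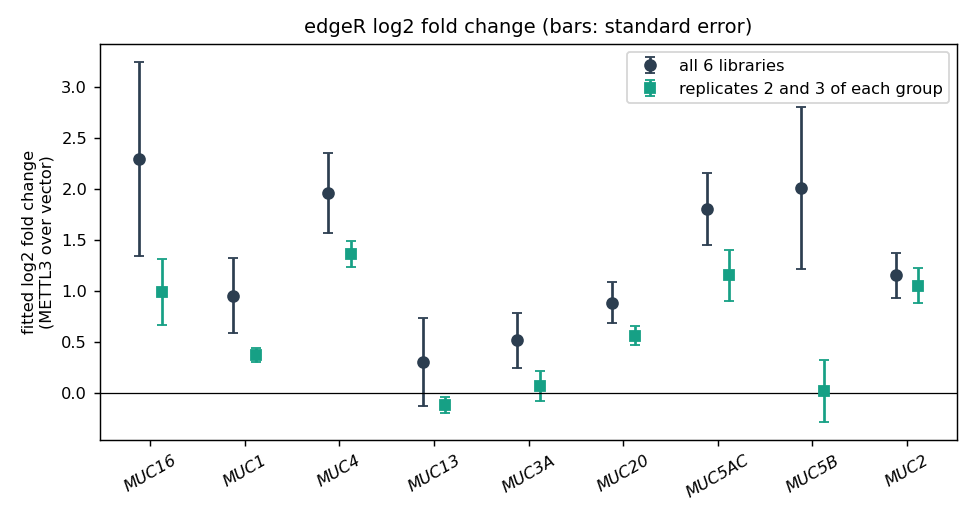
Fitted log2 fold change of METTL3 over vector for each mucin, with standard errors as bars, over all 6 libraries (circles) and in replicates 2 and 3 of each group (squares). All 9 circles are above 0, from 0.30 for MUC13 to 2.29 for MUC16, and the squares of MUC13, MUC3A and MUC5B lie near 0.

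METTL3 replicate 1 was the highest of the 6 libraries for all 9 tested mucins, as it was for 25.1% of all genes. MUC16 was selected on this pattern, so its place among the 9 was fixed by the choice. Its level over the mean of METTL3 replicates 2 and 3 ranged from 1.39 for MUC2 and 1.42 for MUC20 to 7.83 for MUC5B and 10.3 for MUC16. Vector replicate 1 did not follow one direction. Against the mean of vector replicates 2 and 3 it was at 2.95 for MUC16, 1.71 for MUC13, 1.17 for MUC4 and 1.15 for MUC2, and at 0.774 for MUC5AC, 0.739 for MUC3A, 0.737 for MUC20, 0.462 for MUC5B and 0.358 for MUC1. Fitted with the group as a covariate, the log2 difference of replicate 1 from replicates 2 and 3 was 2.58 ± 0.41 for MUC16, 1.46 ± 0.86 for MUC5B, 1.19 ± 0.17 for MUC13 and 0.90 ± 0.26 for MUC4, given as a description. MUC16 and MUC13 were among the 4.25% of genes higher in replicate 1 in that fit, from which nothing is read, since MUC16 was selected on this pattern.

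**Figure D3:**
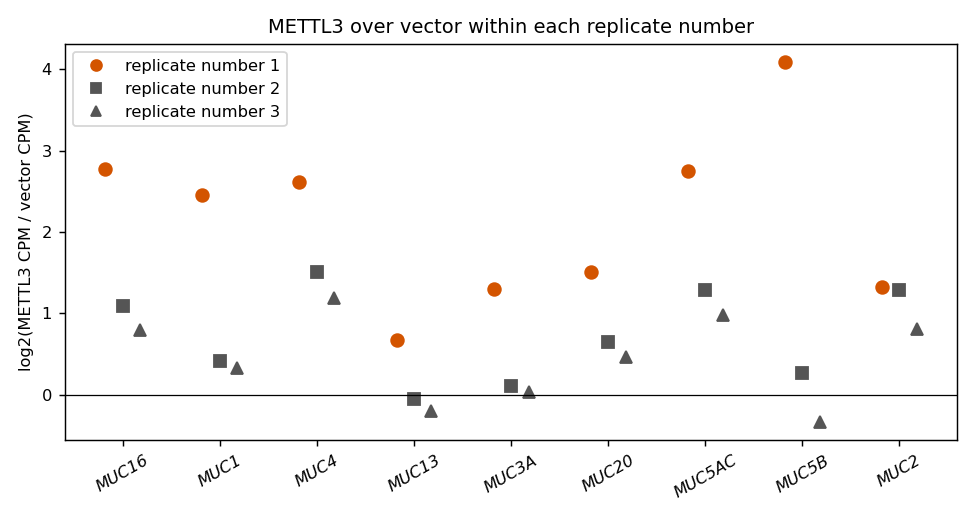
Log2 ratio of METTL3 CPM to vector CPM within replicate numbers 1 (circles), 2 (squares) and 3 (triangles) for each mucin. Libraries are matched by number as a description, since pairing by number was not established. Replicate number 1 gives the highest ratio for all 9, from 0.68 for MUC13 to 4.09 for MUC5B, and the ratios for numbers 2 and 3 are all above 0 for MUC16, MUC1, MUC4, MUC3A, MUC20, MUC5AC and MUC2.

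Per transcript length, as TPM (counts divided by exonic length and scaled to the same sum in each library), MUC1 was the most abundant of the 10, at 108 ± 55.0 TPM (SD, n = 3) in vector libraries and 215 ± 62.3 TPM (SD, n = 3) in METTL3 libraries. With the vector it was followed by MUC13 (33.8 TPM), MUC5AC (21.9 TPM), MUC4 (12.6 TPM), MUC20 (6.96 TPM), MUC5B (3.29 TPM), MUC3A (0.848 TPM), MUC2 (0.528 TPM), MUC16 (0.383 TPM) and MUC15 (0.031 TPM). Only MUC2 and MUC16 overlapped among neighbors in this order. With METTL3, MUC5AC (80.0 TPM) and MUC4 (51.8 TPM) came ahead of MUC13 (44.5 TPM), followed by MUC5B (13.9 TPM), MUC20 (13.3 TPM), MUC16 (2.05 TPM), MUC3A (1.26 TPM), MUC2 (1.23 TPM) and MUC15 (0.080 TPM). There the libraries of neighboring genes overlapped except below MUC1, below MUC20 and below MUC2. The order over all 6 libraries was the same with the longest transcript as the length. Neither length allows for the repeated words of MUC5B, MUC4, MUC5AC, MUC2 and MUC20, and their part in this order was not tested. Nor does either length allow for repeat copy numbers in these cells, which were not measured for MUC1 or any other member.

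The share of MUC16 in the summed TPM of the 10 genes was 0.797%, 0.182% and 0.124% in METTL3 replicates 1, 2 and 3 and 0.511%, 0.128% and 0.0956% in vector replicates 1, 2 and 3. The ovarian marker was thus a small part of the mucin transcripts in every library, and its share was highest in replicate 1 of both groups. MUC1 made up 35.2% to 64.0% of the sum. The sum itself was 649.9, 342 and 277 TPM with METTL3 and 129, 230.1 and 207 TPM with the vector, so that the lowest METTL3 library was above the highest vector library.

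**Figure D4:**
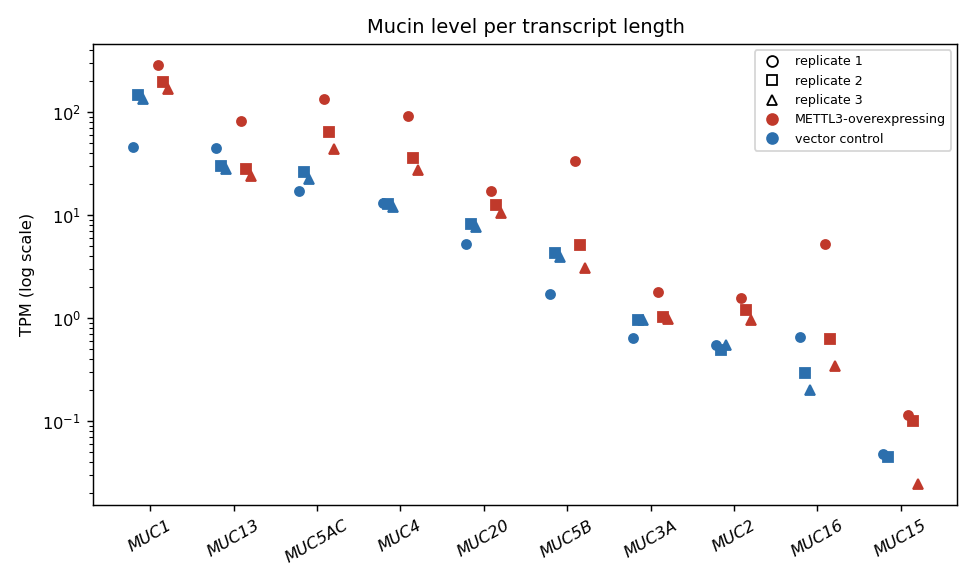
Level per transcript length (TPM, log axis) of the 10 mucins in each library, ordered by the mean with the vector, with circles, squares and triangles for replicates 1, 2 and 3 and red for METTL3 and blue for vector. MUC1 lies highest and MUC15 lowest, the MUC15 library at 0 (vector replicate 3) cannot be drawn on a log axis, and the METTL3 replicate 1 point of MUC16 stands clear of its other 5.

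The mucins varied together only in part. The Pearson correlation of log2 CPM with MUC16, over 6 libraries that share replicate numbers and the high METTL3 replicate 1, was 0.90 for MUC13, 0.86 for MUC4, 0.79 for MUC5B, 0.77 for MUC5AC, 0.74 for MUC2, 0.71 for MUC3A, 0.64 for MUC20 and 0.36 for MUC1. When METTL3 replicate 1 was left out, MUC13 was still the most like MUC16 at 0.61, while MUC1, MUC3A and MUC5B turned negative, at -0.42, -0.53 and -0.39. These values describe 6 and 5 libraries and support no relation.

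Among the 1469 genes with a log2 CPM range of at least 2, the 5 most like MUC16 over 6 libraries were ENSG00000280407, CRISP3, ENSG00000235772, LCMT1-AS2 and RNF213-AS1, with Pearson correlations from 0.980 to 0.998. CRISP3, which encodes a secreted cysteine-rich glycoprotein, was at 16.9, 4.31 and 3.57 CPM with METTL3 against 5.39, 2.88 and 2.85 CPM with the vector, the same order of replicates within each group as MUC16. Without METTL3 replicate 1 the 5 were SLCO1C1, ENSG00000228113, FBN2, ENSG00000280407 and PARK7P1, so ENSG00000280407 was the one gene in both. Of the 2 nearest protein-coding genes on each side of MUC16, only ZNF558 passed the filter, at 5.58 to 6.07 CPM with METTL3 against 7.47 to 7.96 CPM with the vector. MBD3L1, OR1M1 and OR7G2 had at most 6 counts in any library.

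Most members had long transcripts, 8 of the 10 above the median of tested genes, and they differed in their content of the m6A consensus. MUC16 had the longest transcript of the members, at 43816 bases with an exon of 21693 bases, beyond 99.97% of tested genes in length, whereas MUC1 had 1811 bases against a median of 2887. The core motif GGACT, a common form of the DRACH sequence at which METTL3 methylates adenosine, occurred 1.21 times per kilobase in MUC16, 2.23 times in MUC5B, 1.26 times in MUC2, 1.10 times in MUC1, 0.745 times in MUC5AC, 0.695 times in MUC13, 0.597 times in MUC4 and 0.533 times in MUC3A. It occurred once in MUC20 and not at all in MUC15. The median over tested genes was 0.910 per kilobase, and 6 of the 10 members were below it. Methylation itself was not measured in these libraries.

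The genes that build and handle mucins did not follow one direction. Of 34 genes of mucin-type O-glycosylation, 30 were tested, 16 had a positive and 14 a negative log2 fold change, 0 passed over 6 libraries, and 4 were higher and 4 lower at an unadjusted p under 0.05, where 4.40% and 3.91% of all genes were. In replicates 2 and 3, 10 rose and 7 fell, where 6.66% of all genes rose and 8.59% fell. ST3GAL1, which sialylates the core sugar, rose by 0.19 ± 0.06 there (adjusted p = 0.043), GALNT10, which starts the sugar chain, fell by 0.40 on the log2 scale (adjusted p = 0.00035), and neither the initiating enzyme GALNT2 (adjusted p = 0.573) nor the branching enzyme GCNT3 (adjusted p = 0.216) passed. The median log2 fold change of the list was 0.06 over 6 libraries.

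Of 19 genes of mucus-secreting cells, 15 were tested, with 11 positive and 4 negative values over 6 libraries, 0 that passed, and 5 higher and 1 lower at an unadjusted p under 0.05, against 4.40% and 3.91% of all genes. In replicates 2 and 3, 7 rose and 4 fell, against the same 6.66% and 8.59%. AGR2, a chaperone needed for mucin folding, rose there by 0.24 ± 0.06 (adjusted p = 0.0091), KLF4, a transcription factor of goblet cells, rose by 0.23 ± 0.06 (adjusted p = 0.013), and FOXA1 fell by 0.43 on the log2 scale (adjusted p = 0.00017). FCGBP, a secreted mucus protein, was at 182, 48.5 and 30.1 CPM with METTL3 against 18.9, 38.9 and 28.6 CPM with the vector, an order of libraries in which METTL3 replicate 1 was highest and vector replicate 1 lowest, as for MUC5B. Its log2 fold change was 1.59 ± 0.61 over 6 libraries (adjusted p = 0.565) and 0.22 ± 0.38 in replicates 2 and 3 (adjusted p = 0.8002).

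Of 13 mucin partners and sheddases, the proteins that bind mucins or cut them from the cell surface, 12 were tested, with 5 positive and 7 negative values and 0 that passed over 6 libraries, where 3 were higher and 2 lower at an unadjusted p under 0.05, beside 4.40% and 3.91% of all genes. In replicates 2 and 3, 4 rose and 3 fell, beside 6.66% and 8.59%. EGFR, a receptor that associates with MUC1, was among those that rose (0.44 ± 0.09, adjusted p = 0.0085), and so was MSLN, which encodes mesothelin, the binding partner of MUC16 (0.33 ± 0.07, adjusted p = 0.0041). The proteases MMP7 and MMP14 fell by 0.73 and 0.29 on the log2 scale (adjusted p = 1.4e-06 and 0.0019). The protease ADAM9 fell by 0.24 on the log2 scale (adjusted p = 0.0037), while the sheddase ADAM10 did not pass (-0.05 ± 0.05, adjusted p = 0.629). Nor did CTNNB1 (-0.09 ± 0.05, adjusted p = 0.287). Among 15 other mucins and mucin-like genes, 8 were tested, none of them at an unadjusted p under 0.05 over 6 libraries. In replicates 2 and 3, PODXL2 rose by 0.61 ± 0.07 (adjusted p = 2.5e-05), and the sialomucins CD164 (adjusted p = 0.811) and PODXL (adjusted p = 0.587) did not pass.

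Markers of other cell types were measured as lists. The fibroblast markers, 4 of 6 tested, summed to 17.5 to 20.05 CPM with METTL3 against 9.15 to 20.3 CPM with the vector, most of it COL1A1, and the immune markers, 2 of 6 tested, to 35.9 to 47.9 and 44.5 to 64.2 CPM, all but a trace of it LYZ and CD14. PTPRC and CD3E, which define leukocytes and T cells, were under 0.1 CPM in every library. Endothelial markers, 3 of 5 tested, summed to 22.2, 9.82 and 8.02 CPM with METTL3 against 8.20, 6.26 and 5.21 CPM with the vector, and so were highest in replicate 1 of each group. Most of that sum was PECAM1, an adhesion molecule of endothelial cells, while KDR and TEK stayed under 0.2 CPM. PECAM1 was at 21.4, 9.30 and 7.45 CPM with METTL3 against 7.74, 5.72 and 4.67 CPM with the vector, the same order of replicates within each group as MUC16. It rose by 0.69 ± 0.13 in replicates 2 and 3 (adjusted p = 0.0024), and its part in the mucin values was not tested. Of the 6 ovarian carcinoma markers tested, 5 had a positive and 1 a negative log2 fold change, and all 7 epithelial markers had positive values, with 0 passing over 6 libraries. In replicates 2 and 3, where 6.66% of all genes rose, 3 of the 6 ovarian carcinoma markers and all 7 epithelial markers rose, beside 4 of the 9 mucins. The part of this rise of epithelial markers in the mucin values was not tested.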

How the data were processed

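The deposited values were raw counts per gene, which the authors made by aligning reads to hg38 with HISAT2 and counting with Subread (featureCounts); fastp is also named in the submitters' processing notes. Versions, annotation release and strand setting are not given in the sources used here. The labels describe stranded paired-end libraries and the methods single-end reads from another kit, so strand-specific counting is unknown. Of counts from 1 to 20, 67.6% to 70.5% per library were even, as happens where both mates of a pair are counted. If so, limits for a count of 0 are higher, and the fit was repeated on halved counts. Control cells are called parental in one label and empty-vector in another. The 10 genes and all lists were chosen with earlier results of these data known.

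Identifiers were matched without version to GENCODE release 44, which gave exonic lengths and longest transcripts. Genes kept by filterByExpr (edgeR 4.0.16 in R 4.3.3) were scaled by TMM and compared by glmQLFit (robust) with glmQLFTest over all 6 libraries, with Benjamini-Hochberg adjustment over all genes at 0.05. Standard errors were derived from each log2 fold change and its F statistic. The replicate 1 difference was fitted with the group as a covariate. The scripts were tested on simulated counts. Total counts were 96633925 to 125463386 per library, and the lowest count of a tested mucin was 157. Deviations of same-numbered libraries from their group means had correlations of 0.33, 0.12 and 0.17, each over the minimum of 0.1. Deviations within a group cancel, so a shared difference of the replicate 1 libraries alone can make all these correlations positive. Libraries with different numbers were not compared, so these correlations cannot show that the other numbers are paired. The labels do not give a pairing either, and values within a replicate number are a description. The 6-library fit has no replicate term, and the replicate block is an alternative.

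Genes named outside the 10 are up to 4 of each list with the highest mean CPM, the 5 most like MUC16 (log2 CPM with a prior count of 2), and the 2 nearest coding genes on each side of it. KDR, TEK, PTPRC, CD3E, WT1, SOX17, PAX8, CDX2, HNF4A, MUC20P1, MUC20-OT1 and the 7SL genes were added as checks. MSLN was added among the mucin partners as the binding partner of MUC16, and MMP7 and MMP14 as the genes that fell there beside ADAM9. Alternatives were DESeq2 1.42.0, RLE and upper-quartile scaling, no filter, a minimum of 10 counts per library, the replicate block, each library left out, replicates 2 and 3 alone, halved counts, and removal of GC and length trends with splines of 5 degrees of freedom.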

Additional observations from a re-analysis of the deposited data

How the results depend on the processing

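Of the 135 log2 fold changes of the 9 tested mucins under 15 alternatives each, 133 were positive, as in the 6-library fit, 118 stayed on the same side of the threshold, 15 newly passed it and 2 changed sign. MUC16, which was chosen on its levels in these libraries, makes up 15 of the 135. Of its values, 14 stayed on the same side and 1 newly passed, which is a description and no test. The same side does not mean the same size, since its log2 fold change ranged from 0.29 to 3.01. MUC13 changed sign, to -0.12 in replicates 2 and 3, and ranged from -0.41 (without METTL3 replicate 1) to 0.61 (without METTL3 replicate 3 or vector replicate 1) with 1 library left out. Without METTL3 replicate 1 the values fell to 0.29 for MUC16 (highest 3.01, without vector replicate 1), 0.31 for MUC5B (highest 2.48), 0.21 for MUC3A and 1.30 for MUC4, and without vector replicate 1 to 0.60 for MUC1. DESeq2 called 226 genes and 4 mucins (MUC2, MUC4, MUC5AC and MUC20), against 0.846% of genes called higher. No filter gave 560 genes and 7 mucins, MUC16 among them (0.782% higher), and these 7 are among the 15 that newly passed. Replicates 2 and 3 gave 3362 genes and 4 mucins. Removal of GC and length trends gave 1 gene, METTL3, and no mucin. Leaving out 1 library called 0 to 367 genes, the 367 without vector replicate 1, and no mucin. The cause of these differences was not tested. With the replicate block, 0 genes and no mucin passed, as without it, and the lowest adjusted p of a mucin was 0.136 (MUC4), and the block changed no call, but gave 1.16 for MUC5B and 0.14 for MUC13. The count of mucins higher at an unadjusted p under 0.05 was 4 to 7 with 1 library left out, the 4 without METTL3 replicate 1, and the count with all METTL3 above all vector libraries was 6 to 7; both checks were chosen after seeing the data. The log2 difference of replicate 1 from replicates 2 and 3 changed sign within METTL3 for MUC1 (0.60) and within the vector group for MUC3A (-0.44), MUC5AC (-0.37), MUC5B (-1.11) and MUC20 (-0.44). MUC15 was fitted only by DESeq2, which gave it no adjusted p, and without a filter, where it did not pass.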
